A study of Arabidopsis thaliana with 4 samples.

Results

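The 8 genes described here are the ferritin genes *FER1* to *FER4* and the nicotianamine synthase genes *NAS1* to *NAS4* of *Arabidopsis thaliana*, chosen by locus among the 33544 genes of the deposited tables. Polyadenylated RNA was sequenced from whole seedlings aged 14 days, grown on Murashige and Skoog medium or soil in long days without further treatment. The tested plants were *ect2*, a T-DNA insertion mutant of *ECT2* in the Col-0 background whose allele the labels do not name, and they were set against wild-type Col-0, with 2 libraries of each genotype. *ECT2* encodes a YTH-domain reader of N6-methyladenosine in mRNA, so the comparison asks how transcript levels differ when that reader is disrupted. The labels do not say whether libraries came from separately grown plants or which of them grew on medium. P-values therefore measure only the spread between these libraries, and the iron supply of each is unknown.

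Ferritins are plastid-targeted proteins that assemble into hollow shells and store iron in a form that does not generate reactive oxygen. *FER1*, *FER3* and *FER4* are expressed in vegetative tissue and induced by iron excess, and *FER2* is the ferritin of seeds. Nicotianamine synthases make nicotianamine from S-adenosylmethionine. Nicotianamine chelates iron and other metals and keeps them soluble for transport through the phloem and between cells. *NAS1* is expressed in roots and shoots, *NAS2* mainly in roots, *NAS3* mainly in shoots, and *NAS4* responds to iron deficiency. The transcription factors ILR3 and PYE repress ferritin genes and *NAS4*.

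The ferritin genes shared a layout that the nicotianamine synthase genes did not. Each of the 4 ferritin genes has 8 exons and a coding sequence of 762 to 780 nt, whereas each of the 4 *NAS* genes has 1 exon and a coding sequence of 963 to 975 nt (RefSeq, TAIR10.1). *FER1* (AT5G01600) lies at chr5:227953-230051 on the minus strand, *FER2* (AT3G11050) at chr3:3463477-3465506 on the plus strand, *FER3* (AT3G56090) at chr3:20813904-20816035 on the minus strand and *FER4* (AT2G40300) at chr2:16831109-16833294 on the minus strand. *NAS1* (AT5G04950) lies at chr5:1457641-1459039 on the minus strand, *NAS2* (AT5G56080) at chr5:22711141-22712441 on the minus strand, *NAS3* (AT1G09240) at chr1:2984829-2986231 on the plus strand and *NAS4* (AT1G56430) at chr1:21136835-21138277 on the plus strand.

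The 300 bases before the start codon were searched on both strands for the G-box CACGTG, which basic helix-loop-helix factors such as ILR3 bind, for the PHR1 binding sequence GNATATNC, and for the iron-dependent regulatory sequence known from *FER1*. A G-box was present in this window in 4 of 4 ferritin genes and 0 of 4 *NAS* genes, against 6.23% of 27443 protein-coding genes. The PHR1 sequence was present in *FER1* alone among the members, against 5.23% of all genes. The iron-dependent sequence was present in 1 of the 27443 windows, that of *FER1*, from which it is known. The matches do not overlap each other. The 30 bases around each match are given with the motif in capitals, because the G-box is common to the ferritin genes and the other motifs are those of *FER1*.
*FER1*, PHR1 binding sequence, chr5:229803-229832, minus strand: taacgtggatcGAATATCCtcacgttcaca
*FER1*, iron-dependent regulatory sequence, chr5:229763-229792, minus strand: ggatgtagCACGAGGCCGCCACacgcccct
*FER1*, G-box, chr5:229720-229749, minus strand: atatccaccctcCACGTGgatctcaatcca
*FER2*, G-box, chr3:3463496-3463525, plus strand: ttctcctctttcCACGTGtccaacaaacag
*FER3*, G-box, chr3:20816094-20816123, minus strand: atcgtatccatcCACGTGtcaacaatccac
*FER4*, G-box, chr2:16833346-16833375, minus strand: atctcgtacgtaCACGTGtctctcatccgc

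The G-box ended 138 bases before the start codon in *FER1* and in *FER2*, 122 bases before it in *FER3* and 144 bases before it in *FER4*. In *FER1* and *FER2* the match lies in the annotated 5′ UTR, of 457 and 174 nt, and in *FER3* and *FER4* it lies before the annotated transcript start. Counted in the 300 bases before the transcript start instead, the G-box was present in *FER3* and *FER4* only among the 8 genes, against 7.24% of all genes. The PHR1 sequence, present in 6.45% of all genes there, and the iron-dependent sequence were then in no member. A match is a description of the letters and was not tested for binding.

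**Figure D1:**
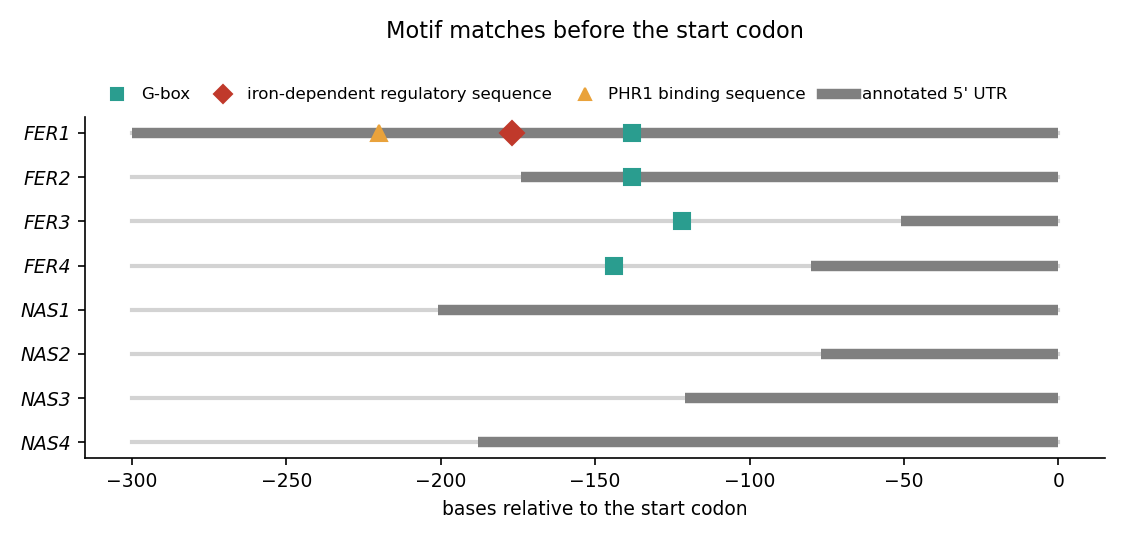
Motif matches in the 300 bases before the start codon of each gene, with distance from the start codon on the horizontal axis, symbols for the 3 motifs and a thick bar for the annotated 5′ UTR. The G-boxes of the 4 ferritin genes sit between 122 and 144 bases before the start codon, and the *NAS* genes have no match in this window.

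*NAS1* and *NAS2* were the closest pair in sequence. Coding sequences were 83.0% identical between *NAS1* and *NAS2*, 79.0% between *NAS3* and *NAS4*, and 66.7% to 68.9% in the other 4 *NAS* pairs. *FER3* and *FER4* were 76.4% identical and the other 5 ferritin pairs 67.2% to 69.5%. The longest identical coding stretch was 49 nt, between *NAS1* and *NAS2*, and no run of 50 nt in a member's transcript occurred in another member. The sources used here give neither the read length nor the treatment of reads that match several genes. That stretch is shown with its flanks because shorter reads inside it could not be assigned to one gene, with the bases that differ between the genes in capitals.
*NAS1*, chr5:1458590-1458658, minus strand: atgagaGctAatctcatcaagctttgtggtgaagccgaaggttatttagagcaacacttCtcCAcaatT
*NAS2*, chr5:22712113-22712181, minus strand: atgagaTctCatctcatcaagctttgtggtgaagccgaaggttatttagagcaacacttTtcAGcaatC

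The motif reported for ECT2 binding, searched on the transcript strand as UAUAC or UAUAU, and with G at the second letter as UGUAC or UGUAU, occurred in the annotated 3′ UTR of 7 of the 8 genes, against 81.9% of 23317 genes with an annotated 3′ UTR, so the members' share is near that of all genes. *NAS1* had 4 matches, *FER1* had 1 and *NAS4* had 0 in a 3′ UTR of 280 nt.

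Values are taken as FPKM, fragments scaled to transcript length and to the mapped fragments of the library, a unit inferred from the tables. *ECT2* itself was listed at 9.07 and 8.58 FPKM in *ect2*, against 137 and 76.7 FPKM in Col-0. Total reads are not given. Relative to Col-0 replicate 2, the ratio of values under 0.4 FPKM gave a depth of 1.39 for *ect2* replicate 1, 0.983 for *ect2* replicate 2 and 1.44 for Col-0 replicate 1. Leaf and root markers were detected in each library. Of 5 pollen and anther markers, 4 stayed below 1 FPKM throughout. The other, *TPD1*, was listed at 28.6 and 31.5 FPKM in *ect2*, against 20.9 and 24.1 FPKM in Col-0. Col-0 replicate 1 stood apart. Its 7 seed markers summed to 255 FPKM, against 6.4 to 8.7 FPKM in the other libraries. Its 4 sugar-starvation markers summed to 54.1 FPKM, against 1116 to 1866 FPKM in the others. That contrast rests on *ASN1*, *DIN10* and *SEN1*, since *BGLU30* stayed below 1 FPKM in every library. The 6 touch markers of Col-0 replicate 1 summed to 268 FPKM, against 1246 to 2560 FPKM, but not all of them were lowest there. *TCH2* was lower in *ect2* replicate 1 (66.2 FPKM) than in Col-0 replicate 1 (120 FPKM). *ZAT12* was too (10.3 against 30.1 FPKM), and the other touch markers were lowest in Col-0 replicate 1. In *ect2* replicate 1 the clock gene *PRR5* was listed at 53.8 FPKM, against at most 15.3 FPKM in the other libraries, and *LHY* at 0.252 FPKM, against 1.12 FPKM or more. *ELF4* split by replicate number, at 82.9 and 21.6 FPKM in *ect2*, against 86.3 and 27.6 FPKM in Col-0. The part of these markers in the results was not tested.

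Genotypes were compared on log2(FPKM + 1) with limma over 19308 genes that reached 1 FPKM in 2 or more libraries, and all 8 members passed this filter. Of the members, 0 were called at an adjusted p below 0.05, against 5 of all genes tested (0.0259%), of which 2 were higher in *ect2* (0.0104%) and 3 lower (0.0155%). *ECT2* itself was not called either (adjusted p = 0.153, limma). At an unadjusted p below 0.05 stood 1 of the 8, *NAS2*, against 4.86% of all genes tested (limma). Both *ect2* libraries lay below both Col-0 libraries for *NAS2* and *NAS4*, that is 2 of 8, as for 20.2% of all genes tested. No member had both *ect2* libraries above both Col-0 libraries, as 17.5% of all genes tested had. The share of members that did not overlap is thus near or below that of all genes. In bulk seedlings, fewer cells of a type and less RNA per cell cannot be told apart.

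*FER1* had the highest level of the 8 genes. It was listed at 161 and 316 FPKM in *ect2*, against 126 and 195 FPKM in Col-0. The genotypes overlapped, since Col-0 replicate 2 lay above *ect2* replicate 1, and the highest value was that of *ect2* replicate 2. The mean was 239 ± 109 FPKM in *ect2* and 161 ± 48.8 FPKM in Col-0 (SD, n = 2 each). In log2(FPKM + 1) the genotypes differed by 0.52 ± 0.41 (SE), with an adjusted p of 0.844 (limma). It was 0.038 with *ect2* replicate 2 left out, 1.00 with *ect2* replicate 1 left out, 0.21 with Col-0 replicate 1 left out and 0.83 with Col-0 replicate 2 left out, so its size rested on single libraries.

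*FER3* and *FER4*, the other vegetative ferritin genes, had lower means in *ect2* with overlapping libraries. *FER3* was listed at 39.1 and 57.0 FPKM in *ect2*, against 66.9 and 53.3 FPKM in Col-0, a difference of -0.33 ± 0.28 (log2, SE) with an adjusted p of 0.846 (limma). *ect2* replicate 1 was the lowest library and Col-0 replicate 1 the highest, with the others between them. The *FER3* difference ran from -0.60 with *ect2* replicate 2 left out to -0.067 with *ect2* replicate 1 left out, and was -0.17 with Col-0 replicate 1 left out. *FER4* was listed at 29.8 and 35.4 FPKM in *ect2*, against 34.5 and 40.7 FPKM in Col-0, a difference of -0.20 ± 0.23 (log2, SE) with an adjusted p of 0.877 (limma). Of the 8 genes *FER4* varied least, its highest library being 1.37 times its lowest, and its difference ran from -0.32 to -0.078 on leaving out 1 library, the smallest with *ect2* replicate 1 left out.

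*FER2*, the seed ferritin gene, had the lowest mean level of the 8 genes. It was listed at 2.96 and 2.20 FPKM in *ect2*, against 3.17 and 2.01 FPKM in Col-0. The Col-0 values enclosed those of *ect2*, and the difference was 0.0063 ± 0.28 (log2, SE), with an adjusted p of 0.997 (limma). Col-0 replicate 1, whose seed markers summed to 255 FPKM, had a *FER2* value only slightly above that of *ect2* replicate 1, where seed markers summed to 8.7 FPKM. At these levels few reads lie behind a value. If the most frequent lowest value, scaled to transcript length, stands for 1 fragment, *FER2* rests on roughly 37 and 19 fragments in *ect2* and 46 and 20 in Col-0.

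*NAS2* differed most between the genotypes among the 8 genes. It was listed at 2.45 and 4.05 FPKM in *ect2*, against 14.8 and 7.84 FPKM in Col-0. Both *ect2* libraries lay below both Col-0 libraries. The mean was 3.25 ± 1.13 FPKM in *ect2* and 11.3 ± 4.94 FPKM in Col-0 (SD, n = 2 each), a ratio of 0.286. The difference of -1.50 ± 0.37 (log2, SE) had an unadjusted p of 0.00771 and an adjusted p of 0.842 (limma), so it did not pass over all genes. Leaving out Col-0 replicate 1 gave -1.08 (adjusted p = 0.602, limma). Leaving out Col-0 replicate 2 gave -1.92, which passed (adjusted p = 0.0310, limma), in a fit that called 520 genes (2.74%) and left Col-0 replicate 1 as the only wild-type library. By the same rough scale as for *FER2*, the values rest on about 35 and 41 fragments in *ect2* and 242 and 91 in Col-0.

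*NAS4* also had both *ect2* libraries below both Col-0 libraries, but the gap was narrow. It was listed at 4.20 and 5.71 FPKM in *ect2*, against 26.9 and 6.46 FPKM in Col-0. The value of Col-0 replicate 1 was 6.40 times the lowest, and the other 3 libraries lay close together. The difference was -1.29 ± 0.66 (log2, SE), with an adjusted p of 0.842 (limma). Leaving out Col-0 replicate 1 gave -0.34 (adjusted p = 0.885, limma). Leaving out Col-0 replicate 2 gave -2.24, which passed (adjusted p = 0.0144, limma) in the same fit as for *NAS2*.

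*NAS1* supplied most of the nicotianamine synthase transcript. It was listed at 29.8 and 84.5 FPKM in *ect2*, against 116 and 63.1 FPKM in Col-0. The genotypes overlapped, and the 2 *ect2* libraries lay further apart on a ratio scale than the 2 Col-0 libraries. The difference was -0.76 ± 0.59 (log2, SE), with an adjusted p of 0.844 (limma), and -0.020 with *ect2* replicate 1 left out. It was -1.49 with *ect2* replicate 2 left out, -0.32 with Col-0 replicate 1 left out and -1.19 with Col-0 replicate 2 left out.

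*NAS3* was listed at 4.84 and 8.48 FPKM in *ect2*, against 12.2 and 4.53 FPKM in Col-0. The Col-0 values enclosed those of *ect2*, with a difference of -0.20 ± 0.50 (log2, SE) and an adjusted p of 0.946 (limma). The sign turned to give 0.15 with *ect2* replicate 1 left out and 0.43 with Col-0 replicate 1 left out. Col-0 replicate 1 was the highest library for each of the 4 *NAS* genes, and *ect2* replicate 1, whose clock genes stood apart, the lowest for *NAS1*, *NAS2* and *NAS4*.

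**Figure D2:**
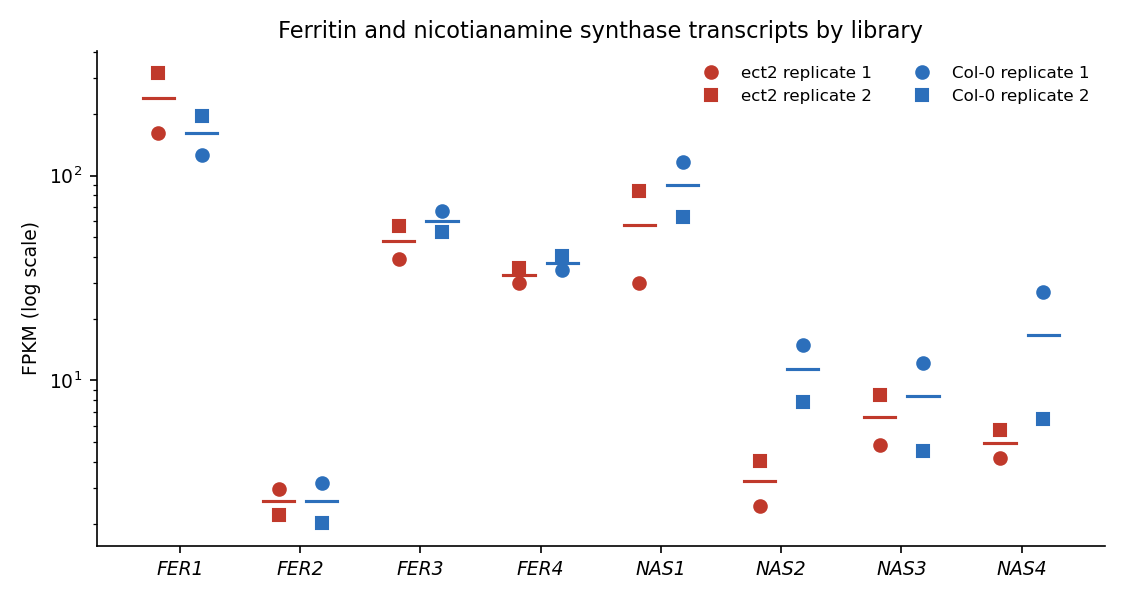
FPKM of each gene on a log scale, with *ect2* libraries in red to the left and Col-0 libraries in blue to the right, circles for replicate 1, squares for replicate 2 and bars for the mean of 2 libraries. *NAS2* and *NAS4* have both *ect2* libraries below both Col-0 libraries, and the genotypes overlap for the other 6 genes.

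**Figure D3:**
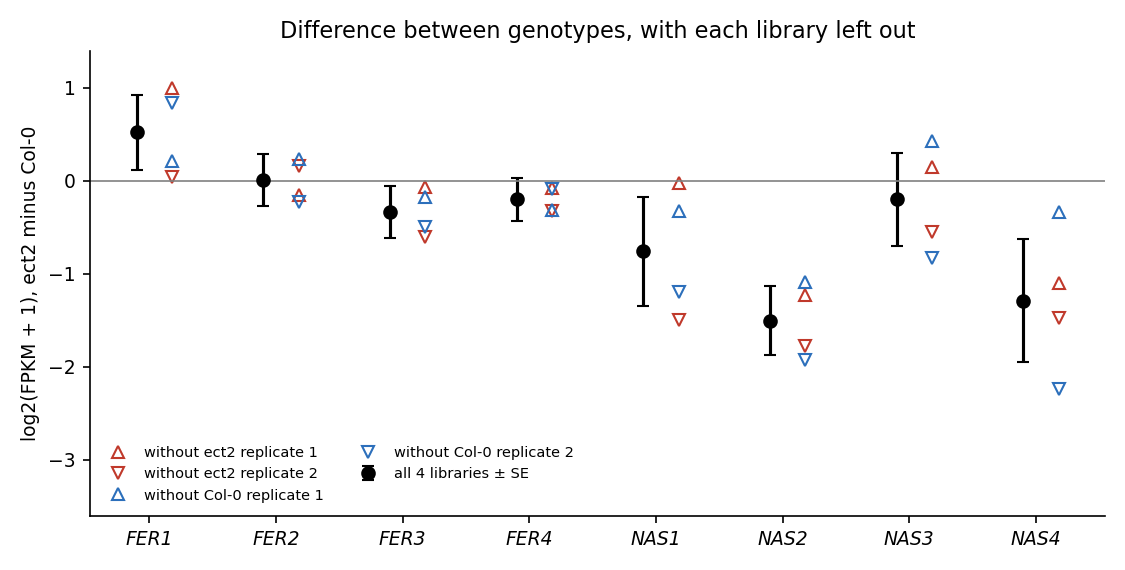
Difference in log2(FPKM + 1) between *ect2* and Col-0 for each gene, as black points with SE over all 4 libraries and as open triangles with 1 library left out. *NAS2* stays between -1.92 and -1.08, *NAS4* spans -2.24 to -0.34, and *FER2* and *NAS3* lie on both sides of 0.

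The order of the 8 genes by mean level over all libraries was *FER1*, *NAS1*, *FER3*, *FER4*, *NAS4*, *NAS3*, *NAS2* and *FER2*. *FER1* lay above *NAS1* in all 4 libraries without overlap of their ranges, and so did *FER4* above *NAS4*. *FER3* exceeded *FER4* in all 4 libraries, although their ranges overlapped. *NAS1* exceeded *FER3* in 3 libraries, and not in *ect2* replicate 1. *NAS4* against *NAS3*, and *NAS3* against *NAS2*, were in either order, each higher in 2 of 4 libraries. Among all genes tested *FER1* ranked between the 93.3rd and the 97.3rd percentile and *FER2* between the 10.8th and the 21.0th. *NAS4* moved most in rank, from the 25.9th to the 74.6th percentile.

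Summed over all 4 genes of a family, the libraries of the genotypes overlapped. The 4 ferritin genes summed to 233 and 411 FPKM in *ect2*, against 231 and 291 FPKM in Col-0. The 4 *NAS* genes summed to 41.3 and 103 FPKM in *ect2*, against 170 and 81.9 FPKM in Col-0. An exact two-sided permutation test over libraries gave p = 0.667 for each family, where 2 libraries against 2 cannot go below 0.333. The log2 difference of the sums was 0.25 for ferritins and -0.86 for *NAS* genes. That of ferritins was 0.66 or -0.15 without the first or the second *ect2* library, and 0.087 or 0.42 without the first or the second Col-0 library. That of *NAS* genes was -0.20 without *ect2* replicate 1, -1.52 without *ect2* replicate 2, and -0.33 or -1.39 without the first or the second Col-0 library. Without the gene of highest level, both sums were lower in both *ect2* libraries than in both Col-0 libraries, with log2 differences of -0.28 for ferritins without *FER1* and -1.14 for *NAS* genes without *NAS1*. The gap was narrow for both sums, with *ect2* replicate 2 only just below Col-0 replicate 2. The exact permutation p was then 0.333 for each, the smallest that this design allows.

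*FER1* and *NAS1* made up most of their families in each library. *FER1* made up 69.2% and 77.0% of ferritin FPKM in *ect2*, against 54.7% and 67.0% in Col-0. *FER2* made up 0.535% to 1.37% in the 4 libraries. *NAS1* made up 72.2% and 82.2% of *NAS* FPKM in *ect2*, against 68.3% and 77.0% in Col-0. *NAS2* made up 5.92% and 3.94% in *ect2*, against 8.71% and 9.57% in Col-0, so its share was lower in both *ect2* libraries. The shares of *FER3* and *FER4* were also lower in both *ect2* libraries, and those of *FER1* and *NAS3* were higher in both. The shares of *FER2*, *NAS1* and *NAS4* overlapped between genotypes. How often such shares separate in other gene families was not computed, so nothing is read from these separations.

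Ratios within a library do not depend on its scaling, and 8 pairs of members were compared this way without a test. *NAS1* stood at 12.2 and 20.9 times *NAS2* in *ect2*, against 7.84 and 8.05 times in Col-0. *FER1* stood at 4.13 and 5.55 times *FER3* in *ect2*, against 1.89 and 3.66 times in Col-0. *FER1* stood at 5.42 and 8.92 times *FER4* in *ect2*, against 3.66 and 4.80 times in Col-0. These 3 ratios did not overlap between genotypes, and the other 5 did. The share of all gene pairs whose ratio does not overlap was not computed, so nothing is read from this count. The *NAS* sum over the ferritin sum was 0.177 and 0.250 in *ect2*, against 0.737 and 0.281 in Col-0, where the lower Col-0 value lay close to the higher *ect2* value.

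**Figure D4:**
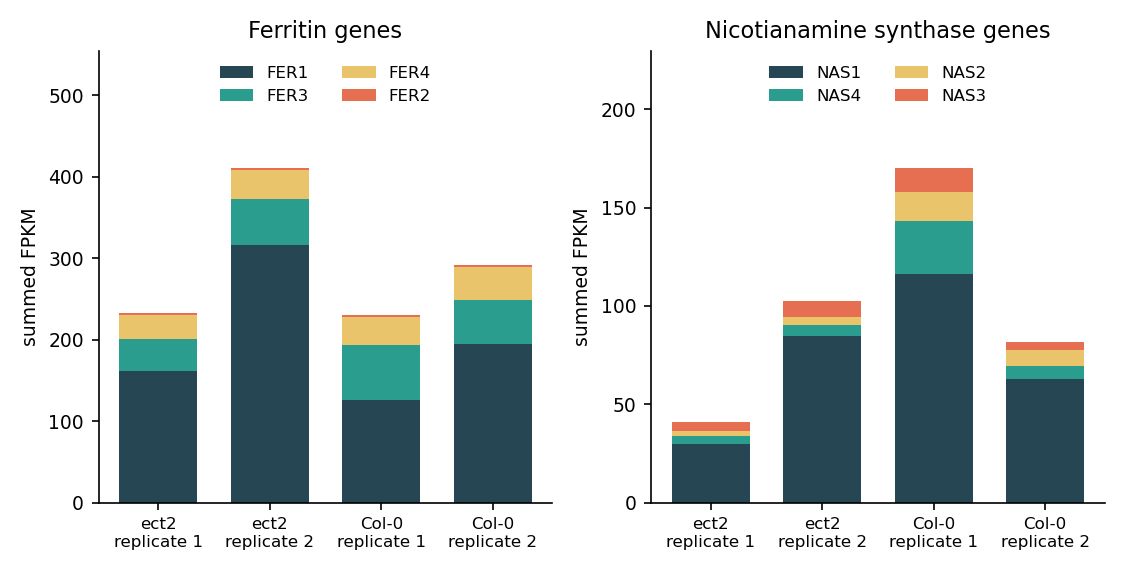
Summed FPKM of the ferritin genes (left) and the nicotianamine synthase genes (right) in each library, with each gene as a stacked segment. *FER1* and *NAS1* fill most of each bar, and the sums of both families overlap between *ect2* and Col-0.

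Genes that act beside the members were given as lists, by counts and medians. None of these lists had a gene called over all genes, and the median log2 difference of all genes tested was -0.0096. The *NAS* genes had a median of -1.02 with 4 of 4 differences negative, and the ferritin genes one of -0.097 with 2 negative. With 1 library left out, the *NAS* median ran from -1.56 to -0.33, its smallest size being that without Col-0 replicate 1, and the ferritin median from -0.16 to 0.018.

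Carriers that move nicotianamine complexes or citrate had 5 positive and 5 negative differences among 10 tested, with a median of 0.062 that ran from -0.039 to 0.16 on leaving out 1 library. *YSL3*, a transporter of metal-nicotianamine complexes in vascular tissue, was listed at 21.6 and 18.1 FPKM in *ect2*, against 10.3 and 16.2 FPKM in Col-0. *FRD3*, which loads citrate into the xylem, was listed at 2.39 and 3.06 FPKM in *ect2*, against 4.64 and 3.73 FPKM in Col-0. *YSL3* was thus higher and *FRD3* lower in both *ect2* libraries, neither past the threshold (adjusted p = 0.842 for both, limma). Of the 10 tested, 4 were higher and 1 lower in both *ect2* libraries, against 17.5% and 20.2% of all genes tested. The list was chosen with earlier results known, so nothing is read from these counts. *OPT3*, a phloem iron transporter, was listed at 27.3 and 27.1 FPKM in *ect2*, against 62.4 and 27.0 FPKM in Col-0. As with *NAS4*, its high value was that of Col-0 replicate 1. *YSL2* was listed at 6.97 and 12.4 FPKM in *ect2*, against 13.5 and 12.2 FPKM in Col-0.

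Vacuolar iron transport genes had 3 positive and 3 negative differences among 6 tested, with a median of 0.070. Its sign rested on single libraries, since it was -0.15 with Col-0 replicate 1 left out, 0.45 with Col-0 replicate 2 left out and -0.091 with *ect2* replicate 2 left out. *NRAMP4*, which releases iron from the vacuole, was listed at 18.8 and 11.1 FPKM in *ect2*, against 23.1 and 16.6 FPKM in Col-0. The vacuolar iron transporter-like gene *VTL2* was listed at 14.6 and 21.5 FPKM in *ect2*, against 8.58 and 19.3 FPKM in Col-0. Like *FER1*, *VTL2* was higher in replicate 2 of each genotype. *VTL1* was listed at 7.25 and 9.67 FPKM in *ect2*, against 5.90 and 18.6 FPKM in Col-0.

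Genes of organelle iron transport and iron-sulfur cluster assembly had 9 negative differences among 14, with a median of -0.19, but the median was -0.0024 with Col-0 replicate 1 left out. Of the 14 genes, 4 had both *ect2* libraries below both Col-0 libraries, against 20.2% of all genes tested. *TIC21* (also *PIC1*), which encodes a plastid envelope protein implicated in iron import, was listed at 58.0 and 59.3 FPKM in *ect2*, against 91.4 and 72.3 FPKM in Col-0. *FRO7*, the chloroplast ferric reductase, was listed at 15.0 and 10.1 FPKM in *ect2*, against 18.7 and 15.5 FPKM in Col-0. Neither passed (adjusted p = 0.842 for both, limma).

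The S-adenosylmethionine synthetases supply the substrate of nicotianamine synthases. Their 4 genes had a median difference of -0.036, and 1 difference was positive. The median was 0.052 with *ect2* replicate 1 left out and 0.14 with Col-0 replicate 1 left out. *MAT3* was listed at 148 and 166 FPKM in *ect2*, against 305 and 134 FPKM in Col-0. The high value was again that of Col-0 replicate 1.

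Regulators of ferritin and *NAS* genes (11 genes) had a median difference of 0.0085, which ran from -0.13 to 0.23 on leaving out 1 library. Of them, 2 had an unadjusted p below 0.05 (limma), against 4.86% of all genes tested. This list too was chosen with earlier results known, so nothing is read from the count. *PYE*, the iron-deficiency repressor of *NAS4* and ferritin genes, was listed at 7.45 and 5.69 FPKM in *ect2*, against 9.78 and 12.5 FPKM in Col-0. *bHLH115*, an activator of the iron-deficiency response, was listed at 40.5 and 42.2 FPKM in *ect2*, against 57.8 and 63.6 FPKM in Col-0. Both genes were lower in both *ect2* libraries and did not pass (adjusted p = 0.842 for both, limma). *ILR3* went the other way, at 84.0 and 82.4 FPKM in *ect2*, against 70.9 and 70.2 FPKM in Col-0 (adjusted p = 0.852, limma). Of the 11 genes, 4 were lower and 2 higher in both *ect2* libraries, against 20.2% and 17.5% of all genes tested. *bHLH121*, which acts upstream of *PYE* and ferritin genes, was listed at 33.9 and 30.4 FPKM in *ect2*, against 11.6 and 32.7 FPKM in Col-0. Here Col-0 replicate 1 was the low library.

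Among antioxidant enzymes 4 of 9 genes tested had an unadjusted p below 0.05 (limma), against 4.86% of all genes tested, with 0 called. The list was chosen with earlier results of these data known, so nothing is read from this count. The median difference was 0.10, and ran from -0.077 to 0.069 on leaving out 1 library. *FSD2*, a plastid iron superoxide dismutase gene, was listed at 13.8 and 11.3 FPKM in *ect2*, against 24.2 and 26.4 FPKM in Col-0. *FSD3*, its partner in plastid nucleoids, was listed at 21.6 and 22.0 FPKM in *ect2*, against 44.1 and 30.6 FPKM in Col-0. *FSD2* and *FSD3* were lower in both *ect2* libraries. The more abundant iron superoxide dismutase gene *FSD1* overlapped, at 926 and 1706 FPKM in *ect2*, against 1482 and 1433 FPKM in Col-0. The copper/zinc enzyme genes *CSD1* and *CSD2* were higher in both *ect2* libraries, *CSD1* at 79.4 and 74.4 FPKM in *ect2*, against 33.0 and 56.1 FPKM in Col-0. *CSD2* was listed at 44.5 and 36.5 FPKM in *ect2*, against 23.9 and 26.1 FPKM in Col-0 (adjusted p = 0.842 for each of *FSD2*, *FSD3*, *CSD1* and *CSD2*, limma).

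Root iron uptake genes had a median of -0.88 with 5 of 6 differences negative. *IRT1*, the iron transporter of the root surface, was listed at 3.99 and 4.67 FPKM in *ect2*, against 23.5 and 33.6 FPKM in Col-0 (adjusted p = 0.235, limma). Like *NAS2*, it was lower in both *ect2* libraries. So was the ferric reductase gene *FRO2*, at 1.26 and 1.12 FPKM in *ect2*, against 4.44 and 6.76 FPKM in Col-0 (adjusted p = 0.791, limma). *HA2*, *F6'H1* and *ABCG37* of this list overlapped between genotypes, with log2 differences of -0.056, -0.19 and 0.057. *CYP82C4*, an oxidase gene of coumarin synthesis, was listed at 0.345 and 0.810 FPKM in *ect2*, against 8.05 and 12.0 FPKM in Col-0. It passed the filter only through Col-0, so the list median holds a gene that had to differ, and nothing is read from it. With Col-0 replicate 1 or 2 left out, *CYP82C4* was no longer tested, and the median of the other 5 genes was -0.20 or -0.35. Root markers outside iron uptake had a median of -0.067 over 9 genes. Of these, 2 had both *ect2* libraries below both Col-0 libraries and 2 above, against 20.2% and 17.5% of all genes tested. *NRT2.1*, among those lower, passed the filter only through Col-0, so it had to differ and nothing is read from this count. The median holds this gene too. The 9 root markers summed to 1447 and 1683 FPKM in *ect2*, against 1362 and 1370 FPKM in Col-0. Most of each sum was *PYK10*, at 1310 and 1559 FPKM in *ect2*, against 1242 and 1206 FPKM in Col-0.

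**Figure D5:**
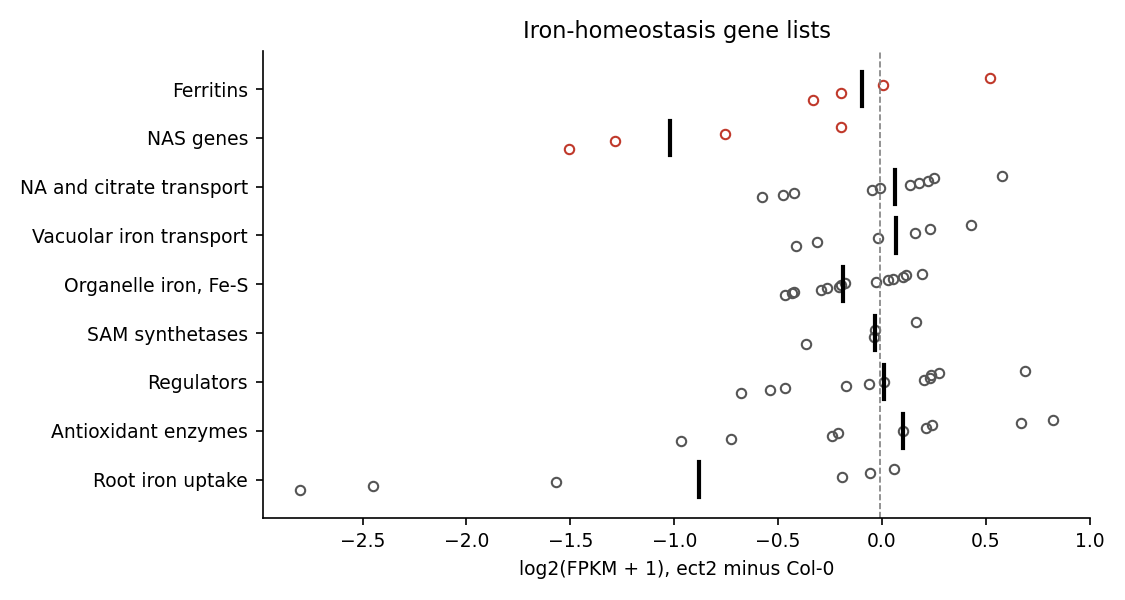
Difference in log2(FPKM + 1) between *ect2* and Col-0 for tested genes of each iron-related list (circles), with the list's median (black bar) and the median of all genes tested (dashed line). The *NAS* genes have a median of -1.02, and the ferritin genes lie around 0 at -0.097. The root iron uptake median of -0.88 holds *CYP82C4*, which passed the filter only through Col-0, so nothing is read from it.

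Genes most like a member were sought by the root-mean-square distance of centred log2(FPKM + 1) over the 4 libraries, for the 5 members that spanned more than 1 on that scale. All genes share these 4 libraries, so likeness describes the libraries. The gene closest to *FER1* was *LEA7*, at a distance of 0.058, followed by *HAI1*, a protein phosphatase gene of abscisic acid signalling, at 0.083. *HAI1* was listed at 6.46 and 14.1 FPKM in *ect2*, against 4.27 and 7.31 FPKM in Col-0. The closest to *NAS1* was *FMO GS-OX1* at 0.092, followed by *MYB29* at 0.10. Both act in glucosinolate synthesis. The closest to *NAS2* was *HYH*, a homologue of the light-signalling factor HY5, at 0.091. *HYH* was listed at 2.03 and 2.87 FPKM in *ect2*, against 10.8 and 6.15 FPKM in Col-0. The closest to *NAS3* was *ZIP11*, a gene of the ZIP family of metal transporters, at 0.051. *ZIP11* was listed at 4.93 and 9.25 FPKM in *ect2*, against 13.4 and 5.19 FPKM in Col-0. The closest to *NAS4* was *HBP1*, at 0.11, followed by *VTC2*, an enzyme gene of ascorbate synthesis, at 0.14. *VTC2* was listed at 17.4 and 29.5 FPKM in *ect2*, against 106 and 30.7 FPKM in Col-0, and so shared the high value of Col-0 replicate 1.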

How the data were processed

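Each library has its own deposited table of values taken as FPKM, from the identifier column (named as by Cufflinks) and from library sums that differ and are too large for TPM. The submitters' processing notes name cutadapt, TopHat and TAIR10. The sources used here do not give versions, the quantifier, the annotation release or any scaling between libraries, and the absolute depth is unknown. Of 33544 identifiers, 32809 were found in RefSeq's TAIR10.1 gene table. That release gave coordinates, sequences and symbols, and the deposited tables hold no coordinates.

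The log2 of the deposited FPKM plus 1 was fitted with limma 3.58.1 (R 4.3.3; trend, robust, two-sided) for genes reaching 1 FPKM in 2 or more libraries, a procedure also tested on simulated data. Simulated libraries had the same noise and only genes of higher level were changed, so that test does not cover low genes or an outlying library. Benjamini-Hochberg adjustment ran over the whole table of tested genes, with a threshold of 0.05. A fold on this scale understates changes of low genes. Alternatives were a replicate block, each library left out, unweighted TMM factors, quantile normalization, pseudocounts of 0.1 and 5, no filter and one of 5 FPKM, and limma without trend. The named genes were the members, *ECT2*, of each other list the 4 or fewer tested genes with the smallest p and the 3 nearest profiles per member that varied, of which some are described. Some other list genes are given for contrast. Members and lists were chosen with earlier results of these data known. Motifs and identities were computed with Biopython 1.88. The ECT2 motif and the within-library ratios were added after values had been seen.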

Additional observations from a re-analysis of the deposited data

How the results depend on the processing

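Over all genes, limma called 4 to 6 genes in the settings that kept all libraries, against 5 in the report, and 0 to 520 with 1 library left out, where the lone library is assumed to vary like the others. These were 0 without either *ect2* library (284 genes without replicate 1 and 431 without replicate 2 had an unadjusted p below 0.05), 11 without Col-0 replicate 1 and 520 without Col-0 replicate 2. Of the members, 0 were called with all libraries kept. *NAS2* ranged from -1.92 to -1.08 and *NAS4* from -2.24 to -0.34 on leaving out a library, and both passed only without Col-0 replicate 2. The ranges were 0.038 to 1.00 for *FER1*, -0.60 to -0.067 for *FER3*, -0.32 to -0.078 for *FER4* and -1.49 to -0.020 for *NAS1*. *FER2* (-0.23 to 0.24) and *NAS3* (-0.83 to 0.43) changed sign, *FER2* also under quantile normalization (-0.0059), the cause not tested. The ferritin sum ranged from -0.15 to 0.66 and was -0.28 without *FER1*, and the *NAS* sum ranged from -1.52 to -0.20. With the replicate block the differences were the same and adjusted p ran from 0.902 to 0.997, with 6 genes called. The labels do not pair replicates, and within-genotype differences correlated at 0.014 over genes. *FER2* could not be tested under the filter of 5 FPKM. At 2 libraries per genotype and an unknown depth, a difference that misses the threshold is not shown to be absent.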
